A study of Mus musculus with 6 samples.

Results

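To ask which genes differ in the endothelial cell (EC)-enriched fraction of ischemic muscle after loss of Leene, RNA-seq reads were compared between Leene-knockout mice given a control virus (KO + GFP) and wild-type mice given the same virus (WT + GFP). The comparison used 4 of the 6 libraries of the series, 2 in each group, chosen by the genotype and virus in their titles. The remaining 2 libraries, from knockout mice given human LEENE, were in the same fit and so took part in the estimate of spread and the filter on low counts. All mice of both groups ate a high-fat, high-sucrose diet, underwent hind limb ischemia (HLI) surgery on day 0, and received an adenovirus for green fluorescent protein (Ad-GFP) in the muscle, by the labels on days 1 and 4. The study's methods place the second injection a day later. Muscle was taken after 1 week and cells were enriched with beads against CD144. The controls therefore carried the diet, the surgery and the virus as well. The study's methods describe the knockout as a CRISPR/Cas9 deletion of the mouse region that corresponds to human LEENE, which removes the gene from all cells, ECs and others alike. Age, sex and the number of mice behind each library are not given in the labels.

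LEENE is a long noncoding RNA that enhances expression of endothelial nitric oxide synthase in ECs. After a limb artery is tied off, ECs of the muscle respond to vascular endothelial growth factor (VEGF) and related signals and form new vessels, while macrophages and fibroblasts enter or expand in the damaged muscle. CD144, or VE-cadherin, is the adhesion molecule of EC junctions, so beads against it enrich ECs, but muscle digests can carry other cells along. In bulk RNA, fewer cells of a type and less RNA per cell cannot be told apart.

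Reads counted in genes numbered 4534530 and 4126552 for the WT + GFP libraries and 5602603 and 3625419 for the KO + GFP libraries. Mitochondrially encoded genes took 50.1 and 50.9% of WT + GFP reads and 34.2 and 34.3% of KO + GFP reads. Both libraries of a group carry 1 facility sample number in the file headers, as parts 1 and 2, and they differed by 1.17 times counting noise in WT + GFP and 1.2 times in KO + GFP. The labels do not say that they came from separate mice, so the p-values below measure only spread between libraries, which may be technical. The fit pooled that spread largely over genes and over all 6 libraries, so a gene whose own libraries disagree can still pass. The deleted noncoding genes were not analysed here, and the genotype labels were thus not checked against the targeted gene.

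The profiles of the 2 groups were far apart. Log2 CPM is reads divided by the library's size after TMM scaling, with 2 prior counts, while CPM alone is per plain library total. Over the 8903 genes tested, Pearson's r of log2 CPM was 0.982 between the WT + GFP libraries and 0.980 between the KO + GFP libraries. Between the groups it ranged from 0.299 to 0.304 over the 4 pairs of libraries. By edgeR's quasi-likelihood test with Benjamini-Hochberg adjustment, 6239 genes (70.1%) were differentially expressed genes (DEGs, adjusted p under 0.05). Of the genes tested, 618 had at most 3 reads in each of the 4 libraries compared, having passed the filter through the other 2, and a fit to the 4 libraries alone tested 7239 genes and called 82.9%. Of the genes tested, 34.2% were higher in KO + GFP and 35.9% were lower. At least 2-fold differences were found for 69.9% of genes and at least 32-fold differences for 20.5%. CPM values did not overlap between the groups for 84.3% of genes. The median log2 fold change over the genes tested was -0.09, and became -0.57 when libraries were scaled by their totals alone. Lower genes made up 51.2% of DEGs, or 59.9% with that scaling. Small changes on the log2 scale below should be read against that shift.

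**Figure D1:**
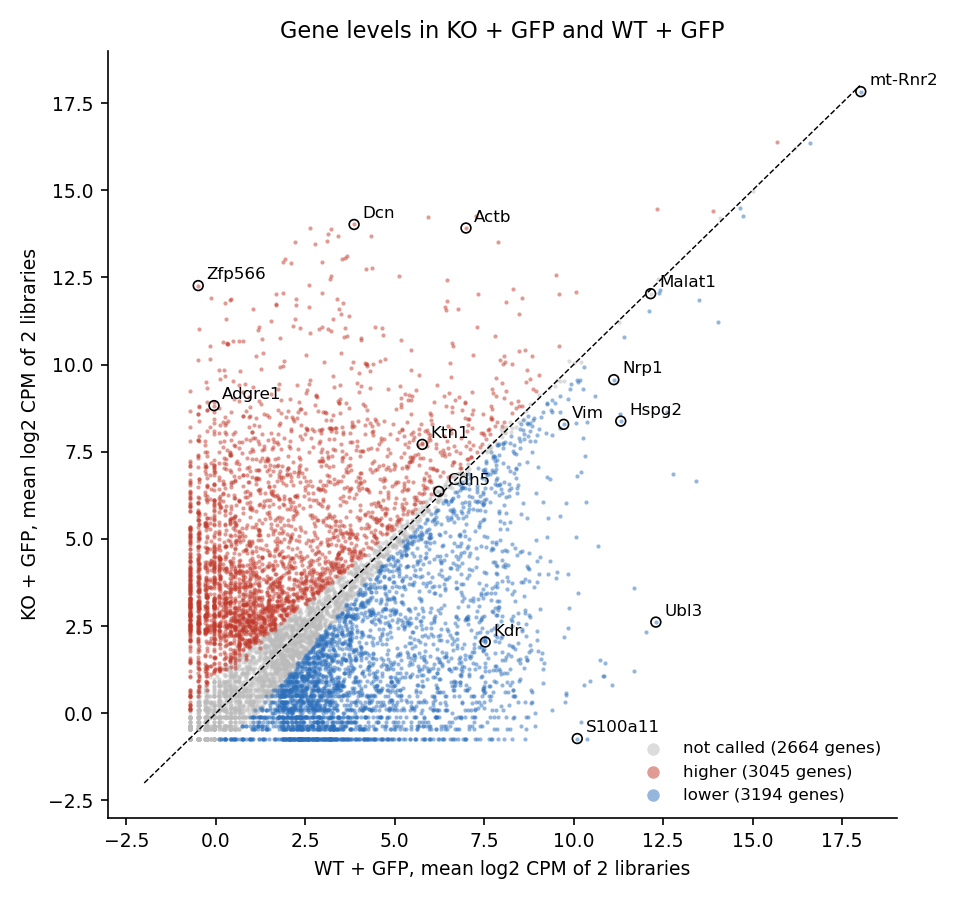
Each point is 1 of the 8903 genes tested, at its mean log2 CPM over the 2 WT + GFP libraries (x axis) and the 2 KO + GFP libraries (y axis), colored by the edgeR call. The dashed line marks equal levels. Genes fill both axes away from the line, with 3045 higher and 3194 lower in KO + GFP, while Malat1, Cdh5 and mt-Rnr2 lie close to it.

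The size of the difference went with the level of the gene. Genes were binned by their level in the group where they were higher, which builds larger differences into the upper bins. Genes of 3 to 10 CPM (2867 genes) had a median absolute log2 fold change of 2.04. Those of 100 to 300 CPM (803 genes) had a median of 4.42, and those of 1000 to 3000 CPM (98 genes) of 8.0. Within a group the difference between libraries shrank over the same bins, from 0.311 to 0.0709 in WT + GFP and from 0.331 to 0.0320 in KO + GFP. In each bin the libraries of a group lay much closer to each other than to those of the other group.

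**Figure D2:**
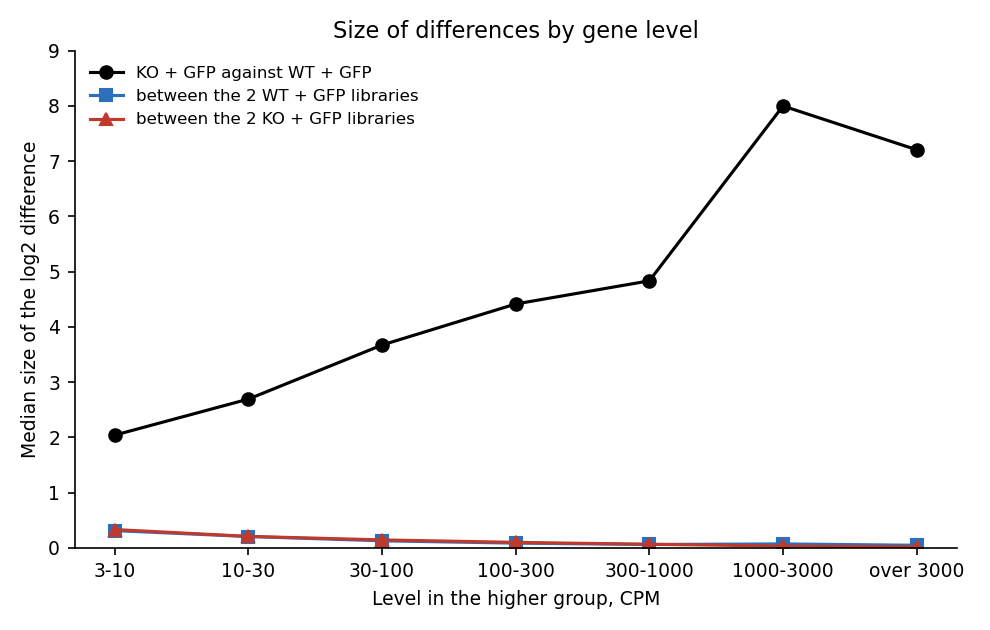
Median absolute log2 difference (y axis) for genes in 7 bins of level in CPM in the group where they were higher (x axis), between the groups (black, edgeR estimate) and between the 2 libraries of WT + GFP (blue squares) or KO + GFP (red triangles). The between-group median goes from 2.04 to 8.0 at 1000 to 3000 CPM and 7.21 above it, while the within-group medians stay under 0.34.

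A total of 2874 genes had at least 10 reads in all 4 libraries. Among them 2070 (72%) were DEGs, 1150 (40%) higher and 920 (32%) lower in KO + GFP. Their median absolute log2 fold change was 1.07, and 215 differed at least 32-fold. This filter keeps genes that are measured in both groups and so leaves out the most extreme ones. In contrast, 231 of the 2874 genes had a 95% interval of the log2 fold change within 0.5 of 0.

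The 12 largest rises among these genes fell in genes of varied function. Col14a1, encoding a collagen that binds to fibril surfaces, had 20 and 26 WT + GFP reads against 58829 and 38483 in KO + GFP. Its log2 fold change was 11.42 ± 0.16 (SE). Decorin (Dcn, chromosome 10, 97479500 to 97518162 on GRCm38), a small proteoglycan made by fibroblasts, went from 53 and 62 reads to 63633 and 40842. The groups did not overlap in either gene, which choosing the largest rises makes near certain and which held for 84.3% of all genes tested. Both libraries of a group lay close together. Fabp4, the fatty acid carrier of adipocytes and capillary ECs, had 33 and 20 WT + GFP reads against 43315 and 27603 in KO + GFP. Abca1, which exports cholesterol from cells, had 27 and 41 against 52426 and 34436 reads. Pf4, a chemokine of platelets and some macrophages, had 13 and 12 against 16152 and 10677. Selenop (a secreted selenium carrier), Ucp2 (a mitochondrial carrier), Rab2a (a GTPase of Golgi traffic), Atp1b3 (a sodium pump subunit), the zinc finger genes Zfp229 and Zfp14 and the noncoding Oip5os1 made up the rest of the 12 largest rises, with log2 fold changes from 10.33 to 11.45.

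The 12 largest falls were also in genes of varied function. Ubl3 (chromosome 5, 148504635 to 148552789), a ubiquitin-like membrane protein, had 21512 and 19879 WT + GFP reads against 26 and 11 in KO + GFP, a log2 fold change of -9.73 ± 0.17. Btg1, an antiproliferative gene, had 14228 and 13056 against 42 and 30 reads. Mapk6, encoding the kinase ERK3, had 46295 and 43022 against 378 and 256. Per library total, Ubl3 went from 4781 ± 51.8 to 3.84 ± 1.14 CPM (SD, n = 2) and Mapk6 from 10317 ± 153 to 69.0 ± 2.2 CPM, so both were abundant in WT + GFP alone. Junb, an AP-1 transcription factor induced early after stimulation, had 1952 and 1675 against 10 and 10 reads. Hsp90ab1, a chaperone that nearly every cell makes in large amounts, had 1713 and 1640 against 24 and 11. Arhgef28, Tspan5, Abi2, Hcfc1, Pawr and Myo5a were also among the 12 largest falls, whose log2 fold changes ran from -9.73 to -6.09.

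Some abundant transcripts stayed close to level. Malat1, a nuclear long noncoding RNA, had 19467 and 17947 WT + GFP reads against 16099 and 10317 in KO + GFP, a log2 fold change of -0.12 ± 0.10 (adjusted p = 0.272, edgeR). This call changed with the processing: Malat1 was lower by DESeq2, with no filter, with at least 10 reads in all 4 libraries, after thinning, without the first KO + GFP library, and with library totals alone (-0.60). The mitochondrial ribosomal RNAs mt-Rnr2 and mt-Rnr1 fell by 0.20 and 0.24 on the log2 scale, and both were called lower. Per library total they fell further, from 253201 to 158710 CPM and from 94210 to 57263 CPM. The log2 fold change was -0.02 for mt-Nd5 and 0.11 for mt-Cytb, neither a DEG, and both are subunits of the respiratory chain encoded in the mitochondrion. Library totals alone gave -0.50 and -0.37 for these 2 genes, which then passed the test. Of the other alternatives, mt-Nd5 passed in 2, with no filter and with at least 10 reads, and mt-Cytb passed in 4, DESeq2, thinning, at least 10 reads and without the second KO + GFP library. Other mitochondrial genes did differ: mt-Co1 rose from 22092 and 20279 reads to 86976 and 55912, and mt-Nd4 fell from 71988 and 65678 to 9137 and 5802. Of the 13 mitochondrial protein genes, 8 were tested, with 3 higher, 3 lower and 2 not called, and 3 higher and 5 lower by library totals. Several of these genes overlap on the circular genome and reads were counted without strand.

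Genes nearly absent from a group were tested with the others and are part of the counts of DEGs, but they are described separately, since their fitted fold change depends on the prior count. A gene was counted here if it had at most 3 reads in both libraries of a group and at least 30 in both of the other. There were 425 such genes near absent in WT + GFP, 309 of them protein coding, and 536 near absent in KO + GFP, 378 of them protein coding. They took 3.93% of KO + GFP reads and 3.35% of WT + GFP reads, respectively. A total of 85 genes of the first set and 133 of the second had no read at all in the low group.

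Those with the most reads in KO + GFP included subunits of enzymes that most cells use. Uqcrh, a subunit of respiratory complex III, had 0 and 3 WT + GFP reads against 14711 and 9419 in KO + GFP. Anapc10, a subunit of the ligase that drives exit from mitosis, had 3 and 3 against 14470 and 9298. Nsmce1, of the SMC5/6 DNA repair complex, had 3 and 2 against 13255 and 8614, and Mgst3, a glutathione transferase, had 2 and 3 against 9705 and 6344. Ctxn1 followed with 3 and 0 against 5652 and 3732. Zfp566, Dapk3, Lxn, Clec4g and Ddt also ranked among the 10 highest, but their exons overlap those of another gene, which unstranded counting cannot separate.

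In the other direction, S100a11, a calcium-binding protein, had 4833 and 4209 WT + GFP reads against 0 and 0 in KO + GFP. Against a floor of 3 reads over the group it was at least 2289-fold lower. The mitochondrial transfer RNA mt-Tp, with 5609 and 5276 against 0 and 0 reads, was at least 2756-fold lower. Sec61b, part of the channel through which proteins enter the endoplasmic reticulum, had 5104 and 4576 against 2 and 0 reads. Itga6, the laminin-binding integrin α6, had 1882 and 1777 against 3 and 3 reads. Crkl (a signaling adaptor), Parva and Wasl (links between adhesions and actin) and Cdin1 were low in the same way, each with at most 3 reads per KO + GFP library. Tnpo2 and Rnaseh2c were too, with exons that overlap other genes.

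Reads in the low group were also set against reads in the high group. Only nuclear genes more than 32-fold apart were taken, so the reads that the low group could hold rise with the bin by construction. Those with 300 to 1000 summed KO + GFP reads (196 genes) had a median of 5 summed WT + GFP reads. The median was 11 reads with 1000 to 3000 KO + GFP reads (138 genes), 24 with 3000 to 10000 (65 genes), 34 with 10000 to 30000 (47 genes) and 77.5 with 30000 or more (28 genes). In the other direction the medians were 5 (223 genes), 11 (198 genes), 24.5 (64 genes), 10 (10 genes) and 634 reads (5 genes), so the 10000 to 30000 bin did not continue the rise. The cause was not tested. Plekhh2 stood alone in differing within groups, with 57147 and 13 WT + GFP reads against 1442 and 4 in KO + GFP. The edgeR test still called Plekhh2 lower (log2 fold change -5.04 ± 0.24), so this gene is among the DEGs although its groups overlap. It was the only gene with at least 100 reads that differed more than 4-fold within a pair, and was picked out after its values were seen.

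The gap between groups was spread over the genome. Across the 19 autosomes and X, r between the groups ranged from 0.152 on chromosome 17 to 0.352 on chromosome 9, and r within a group from 0.960 to 0.984. Between 30.8 and 44.2% of a chromosome's genes were higher, and between 26.9 and 39.7% were lower. Protein coding genes (6915 genes) had an r of 0.262 between groups, processed pseudogenes (772 genes) 0.230 and long noncoding RNAs (430 genes) 0.335. Next to the deleted region on chromosome 14, Ktn1 (47648448 to 47736564) rose, with 224 and 219 WT + GFP reads against 749 and 550 in KO + GFP (log2 fold change 1.95 ± 0.09). That is under the median absolute log2 fold change of 2.09 over all genes tested. Peli2, on the other side (48120869 to 48260883), reached no more than 4 reads and was not tested. Of 5 tested genes of this neighborhood 1 rose and 4 were not called, against 34.2% higher and 35.9% lower over all genes. With library totals alone 1 rose and 1 fell.

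The label of the fraction was checked with 20 endothelial markers. Their summed level was 989 and 969 CPM in WT + GFP and 2938 and 3095 CPM in KO + GFP. Of 15 tested, 4 were higher, 6 were lower and 5 were not called, against 34.2% higher and 35.9% lower over all genes. Their median log2 fold change was 0.40 against -0.09 over all genes. With library totals alone the split was 4 and 7 and the median -0.09. Cdh5, encoding CD144 itself, had 332 and 283 WT + GFP reads against 322 and 196 in KO + GFP, and its log2 fold change of 0.14 ± 0.11 did not pass the test. It was -0.34 and passed when scaled by library totals. Thus the gene for the selected protein was present in all 4 libraries, at 70.9 ± 3.3 CPM (SD, n = 2) in WT + GFP and 55.8 ± 2.4 CPM in KO + GFP.

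Other endothelial markers went far in both directions. Emcn, a sialomucin of capillary and venous ECs, had 14 and 8 WT + GFP reads against 12245 and 8648 in KO + GFP. Without Emcn the endothelial markers summed to 986 and 967 CPM in WT + GFP and 752 and 709 CPM in KO + GFP, so the rise of the sum came from Emcn. Robo4, a guidance receptor of ECs, had 21 and 15 against 1586 and 950. Kdr (chromosome 5, 75932827 to 75978458), encoding VEGFR2, the main receptor for VEGF, had 808 and 708 against 13 and 9 reads, a log2 fold change of -5.69 ± 0.18. Ptprb, the phosphatase VE-PTP of EC junctions, fell from 1928 and 1823 reads to 1171 and 745. Vwf, the clotting protein that ECs store, rose by 1.29 ± 0.17 on the log2 scale. Pecam1 had 211 and 175 against 140 and 89 reads. Its log2 fold change of -0.36 ± 0.14 had an adjusted p of 0.0193 by edgeR and 0.0718 by DESeq2, and also missed the threshold without the first WT + GFP or the second KO + GFP library. Tek, Esam and Sox17, which ECs use widely, stayed at or under 3 reads in each library, and Nos3, with 19 and 8 against 6 and 8 reads, was not called. Tek, Esam and Sox17 were picked out after their values were seen.

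**Figure D3:**
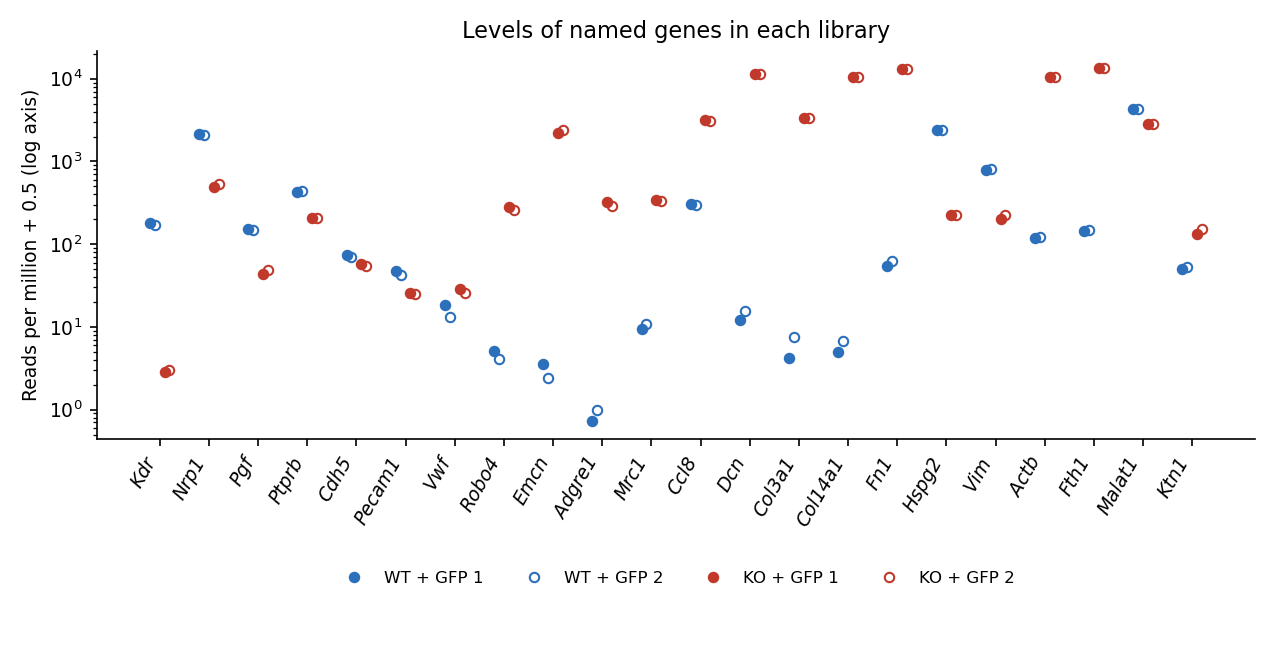
Level of 22 named genes in each of the 4 libraries, in CPM plus 0.5 on a log axis, for WT + GFP (blue) and KO + GFP (red), with the first library filled and the second open. Libraries of a group lie close together, Cdh5 and Malat1 are at like levels in the groups, and Kdr and Hspg2 lie below while Emcn, Adgre1, Dcn and Actb lie above in KO + GFP.

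Markers of other cells were read in the same way, against 34.2% of all genes higher and 35.9% lower. The 16 fibroblast markers summed to 71.9 and 77.5 CPM in WT + GFP and 15955 and 15862 CPM in KO + GFP, and of 9 tested, 6 were higher, 0 lower and 3 not called (5 higher and 2 lower with library totals). That sum came from few genes. Dcn, Col3a1 (17 and 29 against 19017 and 12139 reads) and Col1a2 (8 and 17 against 6491 and 4345) supplied it, while Col1a1, which encodes the partner chain of Col1a2 in type I collagen, had 30 and 35 against 56 and 34. Pdgfra, a defining receptor of fibroblasts, had 171 and 141 against 119 and 93 reads and was not called. Lum, Ly6a, Tcf21 and S100a4 had at most 1 read in each of the 4 libraries. Col1a2, Col1a1, Pdgfra, Lum, Ly6a and Tcf21 were chosen after their values were seen.

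Macrophage markers summed to 37.0 and 51.9 CPM in WT + GFP and 847 and 813 CPM in KO + GFP. Of 16, only 7 were tested, with 5 higher and 2 lower, against 34.2% and 35.9% of all genes. Adgre1, encoding the F4/80 antigen, had 1 and 2 WT + GFP reads against 1823 and 1060 in KO + GFP, a ratio of 1265 (95% counting interval 432 to 6138). Mrc1, the mannose receptor of tissue macrophages, went from 40 and 43 to 1897 and 1217, and Fcgr1, an antibody receptor, from 0 and 1 to 143 and 91. Other defining genes did not follow. C1qb fell from 32 and 37 reads to 1 and 5, Ccr2 from 21 and 29 to 1 and 1, and Itgam was at 0 in both KO + GFP libraries, while Cd68, Cd14, C1qa and C1qc had at most 3 reads in each of the 4. The last 4 were chosen after their values were seen. The part of such cells in the other differences was not tested.

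Few markers of further cell types could be tested. None of 10 neutrophil and none of 8 dendritic cell markers passed the filter on low counts, and their sums stayed between 1.2 and 4.2 CPM. Of 14 lymphocyte markers 2 were tested, and Ms4a1, encoding the B cell protein CD20, had 19 and 18 WT + GFP reads against 0 and 0 in KO + GFP, at least 9.37-fold lower. Of 8 Schwann cell markers 5 were tested, with 4 lower, none higher and 1 not called, against 35.9% of all genes lower. Pmp22, a membrane protein of peripheral myelin, had 64 and 66 against 1 and 2 reads. Of 20 myofiber markers 6 were tested, 4 higher and 1 lower, and the sum of the 20 was 15.4 and 14.5 CPM against 50.7 and 50.2 CPM. That rise came mainly from Myh4 (0.47 to 18.1 CPM) and Pvalb (0 to 13.8 CPM). Mylpf, Tnnt3 and Tnni2 had at most 3 reads in each library, and these 3 and Pvalb were chosen after their values were seen. Of 12 mural cell markers 3 were tested and 2 were higher, Mcam (7 and 4 against 114 and 73 reads) and Rgs5 (2 and 4 against 21 and 5), whose call was lost without the first KO + GFP library, whereas the contractile gene Acta2 had 6 and 2 against 0 and 0 reads. Hba-a1, a hemoglobin chain of red cells, fell from 11432 and 10776 reads to 6688 and 4489. Of 5 erythroid genes tested, 2 were lower and 3 were not called, and the second of the 2, Hba-a2, missed the threshold by DESeq2 and without any 1 of the 4 libraries.

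The angiogenic signals that ECs receive were examined from ligand to nucleus. Of 11 ligand genes tested, 5 were higher and 6 were lower, with a median log2 fold change of -1.25. The shares over all genes were 34.2% higher and 35.9% lower. Pgf (chromosome 12, 85166639 to 85177296), placental growth factor, had 696 and 617 WT + GFP reads against 242 and 176 in KO + GFP, and its log2 fold change was -1.25 ± 0.10. Ccn2, a matrix-bound growth factor target of YAP, fell from 1248 and 1196 to 156 and 116 reads. Vegfb, a VEGF family member, had 474 and 472 against 5 and 6 reads and was picked out after its values were seen. Angpt2, which loosens the vessel wall by blocking Tie2, rose from 9 and 7 reads to 294 and 144. Vegfa rose at low counts, from 8 and 2 to 23 and 19 reads (2.43 ± 0.45). Pdgfb, which recruits pericytes, had 13 and 14 against 1 and 3 reads, and its fall missed the threshold without the first KO + GFP library.

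Receptors split in the same manner, with 5 higher, 4 lower and 1 not called of 10 (34.2% higher and 35.9% lower over all genes). Nrp1, the VEGF co-receptor on ECs, was the most abundant of them and fell from 9647 and 8692 reads to 2769 and 1959 (-1.56 ± 0.11). Nrp2, the co-receptor for lymphatic VEGFs, rose from 37 and 34 to 977 and 720. Flt1, the VEGF decoy receptor, had 502 and 451 against 7 and 3 reads, and Tie1, an orphan receptor that modulates Tie2, had 9 and 1 against 588 and 366. Besides Kdr and Robo4, Met (643 and 631 against 2 and 2 reads) was lower and Igf1r (8 and 11 against 1003 and 649) and Plxnd1 (15 and 7 against 28 and 21) were higher, which completes the receptors called. Flt1, Tie1, Met, Igf1r and Plxnd1 were picked out after their values were seen.

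Downstream, 7 of 16 tested signaling and transcription genes were higher, 5 lower and 4 not called (34.2% higher and 35.9% lower over all genes). Fli1, an ETS factor of ECs and blood cells, rose from 42 and 30 to 7782 and 4908 reads, and its close relative Erg fell from 417 and 345 to 149 and 70. Cav1, the coat protein of caveolae, rose from 91 and 73 to 1066 and 643. Id3, an inhibitor of differentiation factors that BMP signals induce, fell from 1204 and 1013 to 68 and 50. Of 7 Notch pathway genes 2 were higher and 2 lower (1 and 3 by library totals), but Jag1 and Notch4, 1 of each, lost their calls by DESeq2 (adjusted p = 0.231 and 0.125). Rbpj, the DNA-binding partner of Notch, rose from 180 and 163 to 820 and 559 reads, while Nrarp, a feedback target of Notch, had 470 and 414 against 0 and 0, at least 224-fold lower, with exons that overlap another gene. Among the PAF1 complex and its partner Myc, 2 were higher, 2 lower and 1 not called (1 higher and 2 lower by library totals). Ctr9 fell from 267 and 254 to 17 and 13 reads, Myc from 177 and 159 to 104 and 74, and Leo1 had at most 2 reads.

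Matrix genes were tested by class, with 34.2% of all genes higher and 35.9% lower as the background. Collagen genes were higher for 7 of 10 tested and lower for 1, Col12a1, with a median log2 fold change of 2.01. Of 15 tested glycoprotein and basement membrane genes 5 were higher and 8 were lower. Fn1, fibronectin, had 245 and 253 WT + GFP reads against 73191 and 48033 in KO + GFP. In the other direction, Hspg2, the basement membrane proteoglycan perlecan, fell from 10948 and 10028 to 1272 and 818 (-2.94 ± 0.12). Of 6 proteases and inhibitors 4 were higher and 1 was lower. Plau, the urokinase that activates plasminogen, fell from 496 and 437 to 103 and 45 reads.

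Inflammatory genes had 8 of 14 tested higher, none lower and 6 not called, with a median log2 fold change of 3.33. The share called was 57.1%, against 70.1% of all genes, of which 34.2% were higher and 35.9% lower. With library totals 8 were higher and 3 lower. Nfkbia, the inhibitor that NF-κB induces, rose from 81 and 83 reads to 26944 and 17073. The chemokine gene Ccl8 rose from 1401 and 1220 to 17570 and 11171, and Icam1, a leukocyte adhesion molecule, had 0 and 0 against 250 and 139 reads, at least 171-fold higher. Of 8 interferon-stimulated genes 3 were higher and 2 lower (3 and 4 by library totals). Ifitm3, which blocks virus entry, had 1 and 1 against 2592 and 1520 reads, and Ifi35 fell from 280 and 258 to 35 and 37. Antigen presentation split within 1 pathway: B2m rose from 87 and 50 to 6412 and 4161 and H2-D1 from 32 and 27 to 1108 and 684, whereas H2-K1, which pairs with B2m as H2-D1 does, fell from 145 and 121 to 6 and 3. Tapbp, which loads peptide onto these molecules, had 477 and 439 against 1 and 0 reads, with exons that overlap another gene.

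Metabolic genes were also counted, beside 34.2% of all genes higher and 35.9% lower. Of 9 glycolysis genes tested, 6 were higher and 1 was lower, with a median log2 fold change of 3.54. Pkm, pyruvate kinase, rose from 51 and 37 reads to 2554 and 1705, and Pfkm, the muscle phosphofructokinase, fell from 85 and 73 to 32 and 12. Of 11 tested targets of hypoxia-inducible factors 5 were higher and 2 were lower. Bnip3, which marks mitochondria for removal, had 113 and 111 against 0 and 0 reads, at least 56.7-fold lower, and Plod2, a collagen-modifying enzyme, rose from 49 and 27 to 188 and 114. Antioxidant genes had 7 higher, 5 lower and 6 not called (6 and 7 by library totals). Prdx1, a peroxide-removing enzyme, rose from 4 and 5 reads to 6315 and 4035.

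**Figure D4:**
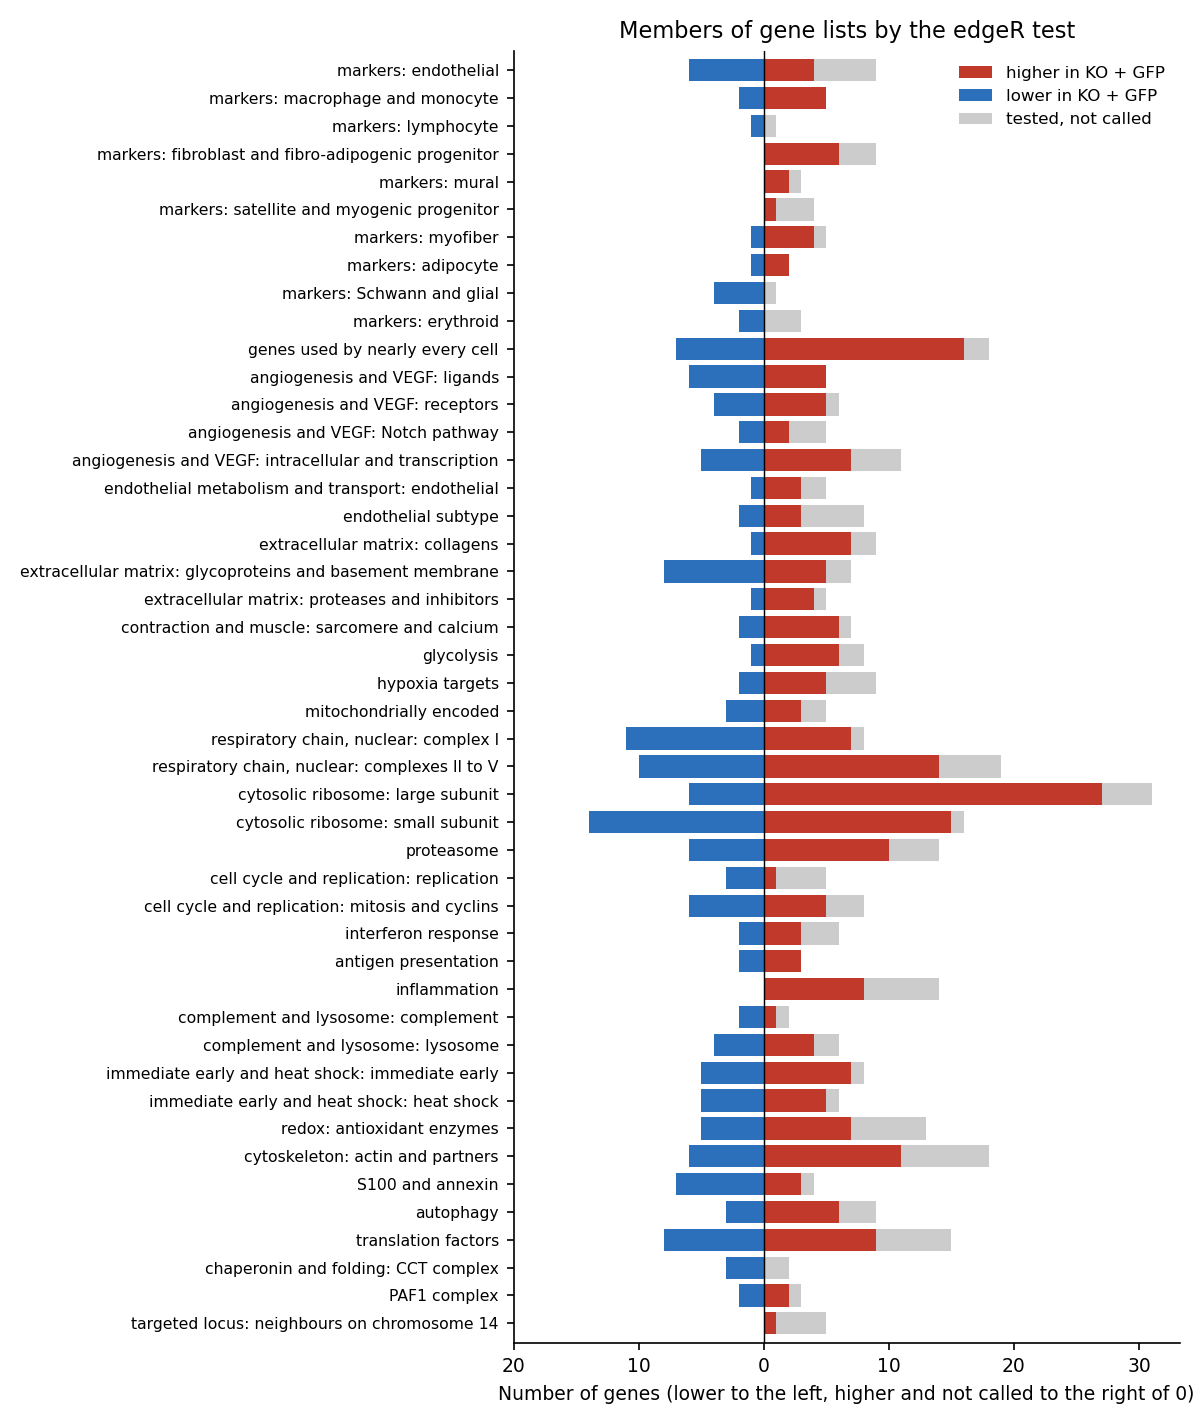
Number of genes on each list (y axis) called higher (red, to the right of 0), lower (blue, to the left) or tested and not called (gray) in KO + GFP against WT + GFP by edgeR. Lists with no gene tested are left out. Most lists hold genes of both directions, such as the small ribosomal subunit with 15 higher and 14 lower.

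Genes that most cells express at a steady level were examined next. Of 32 such genes 25 were tested, and 16 were higher, 7 lower and 2 not called, against 34.2% higher and 35.9% lower over all genes. Their log2 fold changes ran from -6.18 to 9.40. Actb, cytoplasmic actin, had 537 and 504 WT + GFP reads against 58995 and 38293 in KO + GFP (6.93 ± 0.12). Fth1, the ferritin heavy chain, had 658 and 614 against 74704 and 48265. Vim, the intermediate filament protein of mesenchymal cells and ECs, fell from 3572 and 3362 to 1135 and 807. Gapdh, the glycolytic enzyme often used as a reference, had 1 and 2 against 5 and 9 reads and was not tested, and its exons overlap another gene's. Rplp0, of the ribosomal stalk, had 1 and 3 against 43 and 28. Gapdh and Rplp0 were picked out after their values were seen, and both are transcripts that most cells hold in large amounts. The cause of these low counts was not tested.

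Subunits of the same protein complex were set side by side. The large ribosomal subunit had 27 of 37 tested genes higher, 6 lower and 4 not called, against 34.2% higher and 35.9% lower over all genes. Its median log2 fold change was 2.47, and the range was -4.17 to 10.84 with genes at 0 held at their bound. Rpl37 rose from 4677 and 4204 reads to 16781 and 10672, and Rpl13a from 50 and 45 to 8107 and 5244, while Rpl32 fell from 1460 and 1328 to 348 and 205. Its partner, the small subunit, had 15 of 30 tested genes higher and 14 lower (14 and 15 by library totals), from -6.06 to 8.37. Rps9 rose from 1016 and 916 reads to 45483 and 28843. Rps7 fell from 3745 and 3503 to 237 and 167, and Rps27a from 5502 and 5061 to 632 and 406. Ribosomal protein genes have many near-identical pseudogenes, so unique reads may undercount some of them.

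Respiratory complex I had 7 of 19 tested nuclear genes higher and 11 lower, with a median of -2.33 and a range from -8.55 to 11.24. Over all genes 34.2% were higher and 35.9% lower. Ndufb9 had 10 and 4 WT + GFP reads against 4671 and 2982 in KO + GFP, and Ndufv2 had 1341 and 1244 against 3 and 2. Complexes II to V had 14 of 29 higher and 10 lower. Cox8a rose from 71 and 61 to 6685 and 4330 reads, and Cox4i1 had 1421 and 1264 against 3 and 2, with exons that overlap another gene. Both are subunits of the same enzyme, cytochrome c oxidase. The proteasome, which degrades tagged proteins, had 10 of 20 tested genes higher and 6 lower, from -8.34 to 8.15 with genes at 0 held at their bound. Psmd11 rose from 5 and 3 to 747 and 480 reads, and Psmc6 had 650 and 633 against 0 and 0, at least 325-fold lower. Both belong to its regulatory particle. The CCT complex, which folds actin and tubulin, had 3 of 5 tested genes lower and none higher, with Cct2 at 710 and 658 against 0 and 0 reads, at least 346-fold lower.

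**Figure D5:**
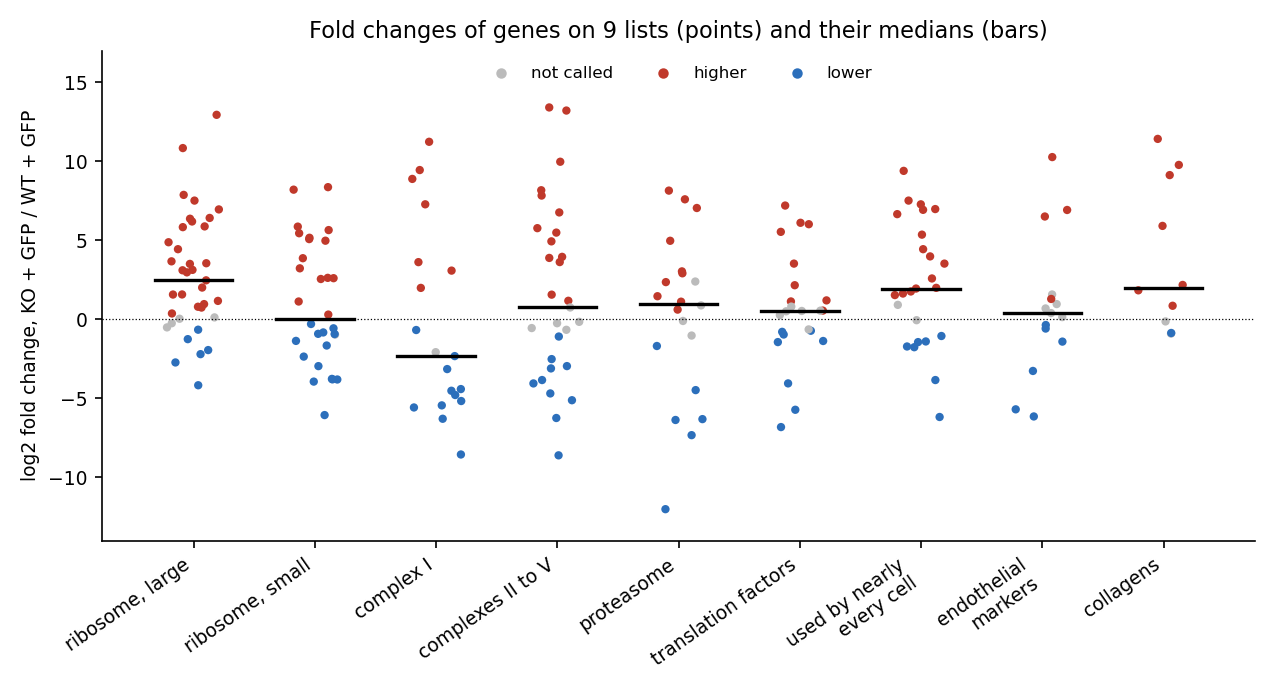
Log2 fold change of KO + GFP against WT + GFP (y axis) for each tested gene of 9 lists (points, colored by the edgeR call) with the list median (black bar). Points are spread sideways only to be seen, and genes at 0 in a group stand at their fitted value, which depends on the prior count. Subunits of the ribosome, respiratory complexes and proteasome lie on both sides of 0, with medians from -2.33 for complex I to 2.47 for the large ribosomal subunit.

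Further groups followed with both directions in each, beside 34.2% of all genes higher and 35.9% lower. Genes of mitosis and cyclins had 5 higher, 6 lower and 3 not called of 14. Cenpf, of the kinetochore, rose from 2 and 5 reads to 278 and 173, and Kif11, the spindle motor, fell from 522 and 562 to 19 and 14. Immediate early genes had 7 higher and 5 lower of 13, with Dusp1, a phosphatase of MAP kinases, rising from 429 and 366 to 5853 and 3914 reads. S100 and annexin genes had 3 higher and 7 lower of 11, with a median log2 fold change of -3.46, or -2.93 with genes absent from a group held at their bound. S100a6 rose from 3315 and 2969 to 15961 and 10286 reads, and Anxa5 fell from 765 and 709 to 66 and 36. Lysosomal genes had 4 higher and 4 lower of 10, among them Ctss, a protease of antigen-presenting cells (10 and 13 against 415 and 275 reads), and Lamp2, of the lysosomal membrane (740 and 652 against 25 and 13).

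Over the 48 lists, 496 genes were tested, and 226 were higher, 161 lower and 109 not called. Of the 235 with at least 10 reads in all 4 libraries, 123 were higher and 74 lower. The share called was 78.0% against 70.1% of all genes, which include the 618 genes with at most 3 reads in each of the 4 libraries. Over all genes it was 75.3% at 3 to 10 CPM and 96.0% at 100 to 300 CPM, and the lists were not matched for level. At least 1 gene rose and 1 fell in 37 of the 46 lists with 2 or more genes tested. With genes at 0 in a group held at their bound, the fold changes of a list spanned more than 10 on the log2 scale in 30 of the 46. Counted in the lists, the calls of Ccn1, Ccnd3, Cd36, Cdc73, Hspd1, Irf9, Lamb1, Myh1, Plin1, Prox1, Timp1 and Ttn were lost under at least 1 alternative. Among the other genes named, Ucp2, Fn1, Col3a1, Itgam, S100a4, Sox17, Ccnd3, Hspd1, Cdc73, Irf9, Myh1, Prox1, Ttn, Mcam, Pdgfra, Ccn2, Nrp1, Nos3, Ifi35, Pfkm, Plod2, Rpl13a, Rpl32, Rps27a, Malat1 and Leo1 also have exons that overlap those of another gene, and unstranded counting cannot assign reads there.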

How the data were processed

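CD144-enriched cells were put through a 3′ single-cell kit without its droplet step (per the labels). The authors deposited unnormalized read counts. Per the file headers, featureCounts 2.0.0 counted uniquely aligned reads over exons of Ensembl release 84 genes (GRCm38), unstranded and without molecular identifiers, so intervals and floors cover counting error only. The submitters' processing notes name STAR 2.5.4b and mm10, the study's methods mm9. Of 47729 genes, 43465 had a name in GENCODE M39.

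Counts of all 6 libraries entered 1 edgeR 4.0.16 quasi-likelihood fit (R 4.3.3) with a mean per group, TMM, filterByExpr (minimum count 10, minimum total 15) and adjusted p under 0.05. SE is the log2 fold change divided by the square root of F. The fit was tested on simulated counts with known changes. Means ± SD have n = 2. Folds against a group at 0 used a floor of 3 reads over the group (3 per library would give lower bounds). With 2 libraries per group no permutation test was run.

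Members and gene lists were chosen with earlier results of these data known. Named genes were those the study names, the 12 largest rises and falls and 6 most abundant DEGs each way with at least 10 reads in all 4 libraries, the 10 most abundant near-absent genes each way, up to 4 per list, and 6 stable genes. Alternatives were other scaling, filters and tools, thinning, a replicate block and leaving out each library. A few genes that this rule names are not reported here.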

Additional observations from a re-analysis of the deposited data

How the results depend on the processing

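DEGs numbered 5506 by DESeq2 and 5719 to 6274 when each library was left out, the arm with 1 library then being assumed to vary like the others. Testing only genes with at least 10 reads in all 4 libraries gave 2143 DEGs, 1092 higher and 1051 lower. Differences of at least 2-fold then numbered 1469 genes, against 20591 with no filter, as fewer or more genes are tested. The median absolute log2 fold change was 2.12 by library totals, 2.13 without mitochondrially encoded genes, 2.60 with only the 4 libraries, 2.03 with no filter, 1.04 with at least 10 reads, 2.11 after thinning, and 2.06 to 2.11 leaving out a library. Genes near absent numbered 190 in WT + GFP and 240 in KO + GFP when at least 100 reads were asked of the other group, and 201 and 288 at 1 read or fewer. Pearson's r between groups, 0.301 as a mean, was 0.284 with a prior count of 0.5, 0.407 with at least 10 reads in all 4 libraries and 0.286 without mitochondrially encoded genes. Of 196 named genes tested, 7 changed direction somewhere and 19 lost their call somewhere, 12 of them without the first KO + GFP library. Library totals gave Cdh5 -0.34, Timp1 -0.034, Hspd1 -0.27, Cdc73 -0.035 and mt-Cytb -0.37. Then mt-Cytb was -0.017 with at least 10 reads. Leaving out each library gave mt-Nd5 -0.081 to 0.053 (highest without the second KO + GFP library) and Nos3 -0.98 to 0.11 (highest without the first WT + GFP library). The causes were not tested. Replicate numbers did not pair the libraries (r of deviations 0.03), and a fit with them as a replicate block called 6072 genes. Each group rests on 2 libraries that carry 1 facility sample number.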

Other observations

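Xist, the noncoding RNA of the inactive X in female cells, had 50 and 28 WT + GFP reads against 738 and 473 in KO + GFP. Its exons overlap those of another gene, and reads there cannot be assigned without strand. The Y-linked Uty had 100 and 95 against 79 and 44 reads and was not called, and the Y-linked Ddx3y, Eif2s3y and Kdm5d had at most 9 reads in any library. These genes were chosen after their values were seen, and the sex of the mice behind each library is not in the labels.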
